A study of Mus musculus with 2 samples.

Results

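The liver sinusoid is lined by endothelial cells that clear waste from blood through a dense set of surface receptors. 10 genes grouped as sinusoidal scavenger and lectin receptors are described here, of 30406 genes listed in both count matrices of the study. Oit3 among them encodes a secreted protein and is counted with the receptors throughout. The 10 genes were chosen by name and matched by Ensembl identifier: Stab1, Stab2 and Lyve1, Mrc1, Fcgr2b, Clec4g and Clec1b, Cd36 and Scarb1, and Oit3. Their unique molecular identifiers (UMIs, single captured RNA molecules) were summed in endothelial cells and in macrophages of 2 mouse liver libraries.

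Sinusoidal endothelial cells have pores and no continuous basement membrane, so that plasma reaches hepatocytes freely. Their scavenger receptors bind modified proteins, collagen fragments, hyaluronan and small immune complexes, and pass them through clathrin-coated pits to lysosomes. Kupffer cells, the resident macrophages of the same sinusoid, share several of the receptors and take up larger particles.

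Both libraries came from mice carrying Col1a2CreER and the Rosa26tdTomato reporter on a C57BL/6 background. In these mice an inducible Cre driven by the Col1a2 promoter switches on a red fluorescent protein. The healthy library held liver cells of uninjured mice, and the CCl4 library those of mice injected repeatedly with carbon tetrachloride, a hepatotoxin that causes fibrosis. Both were made with a droplet 3′ kit after pronase and collagenase perfusion, a Nycodenz gradient and, by the study's methods, removal of CD45+ cells with magnetic beads. The number of animals behind each library, and whether these mice received tamoxifen, was not given in the sources used here. There was 1 library per group, so no difference between groups has a replicate check, no test was made, and library and condition cannot be told apart. All intervals are exact 95% intervals that cover counting error only.

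After filtering, 5605 healthy and 7318 CCl4 cells remained, with medians of 6797 and 11909 UMIs. Endothelial cells, defined by at least 4 UMIs of Pecam1, Cdh5, Egfl7 and Ptprb together, numbered 3531 in the healthy library (63.0% of cells) and 771 in the CCl4 library (10.5%). Their median depths were 6068 and 7674 UMIs. 6 endothelial genes outside the gate (Kdr, Tek, Tie1, Erg, Robo4 and Esam) summed to 3393 CPM (UMIs of a gene per 1000000 UMIs of the class) in healthy endothelial cells and 2515 CPM in CCl4 ones, against 16.7 CPM in healthy cholangiocytes and 13.6 CPM in CCl4 mesenchymal cells. 141 of the 771 CCl4 endothelial cells also passed the mesenchymal gate, against 11 of 3531 healthy ones, and the 5 mesenchymal markers summed to 766 and 10.0 CPM. The macrophage gate was passed as well by 29 of the 771 CCl4 and 22 of the 3531 healthy endothelial cells. In the whole endothelial gate the Kupffer cell markers Clec4f, Vsig4, Cd5l, Timd4 and Marco summed to 353 CPM in the CCl4 and 103 CPM in the healthy library. Cells that passed the endothelial gate and no other numbered 3432 and 605. In these the 6 check genes summed to 3672 and 3645 CPM, the 4 gate genes to 6635 and 4182 CPM and the mesenchymal markers to 6.32 and 38.1 CPM. The ratios of the 10 receptors and the counts of the gene lists are therefore also given for the cells passing the endothelial gate only, a choice made after seeing the data. 10 cell barcodes occurred in both libraries.

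The RefSeq promoter table (GRCm38.p6) held an entry for 7 of the 10 genes. The 250 bases before the start site are shown for 4 of them: Stab2 as a sinusoidal scavenger receptor with a moderate difference between the libraries, Clec4g and Clec1b because they differed most, and Cd36 because it differed the other way. Each is written 5′ to 3′ on the strand of its gene. Capitals mark matches on either strand to 4 motifs. CAGGAA is a core bound by ETS factors of endothelium. TGCTGA is part of the element bound by MAF factors. TGATAA is a core bound by zinc finger factors that include Gata4. The last, TATAAA, is the box that binds the general transcription machinery in some promoters.
Stab2 (chr10:87007943-87008192, minus strand): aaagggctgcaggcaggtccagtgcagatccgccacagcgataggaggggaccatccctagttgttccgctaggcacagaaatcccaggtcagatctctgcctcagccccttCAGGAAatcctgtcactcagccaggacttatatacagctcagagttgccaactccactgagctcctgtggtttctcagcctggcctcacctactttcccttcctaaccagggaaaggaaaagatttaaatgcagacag
Clec4g (chr8:3720652-3720901, minus strand): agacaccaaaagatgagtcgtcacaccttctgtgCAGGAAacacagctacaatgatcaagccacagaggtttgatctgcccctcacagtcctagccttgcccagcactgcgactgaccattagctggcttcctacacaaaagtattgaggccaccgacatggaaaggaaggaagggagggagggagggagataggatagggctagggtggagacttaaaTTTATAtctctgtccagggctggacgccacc
Clec1b (chr6:129397047-129397296, plus strand): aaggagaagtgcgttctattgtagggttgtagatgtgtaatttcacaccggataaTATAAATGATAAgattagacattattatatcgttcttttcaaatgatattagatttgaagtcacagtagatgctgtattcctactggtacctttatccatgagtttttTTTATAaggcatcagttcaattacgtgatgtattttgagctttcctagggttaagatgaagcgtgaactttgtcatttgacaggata
Cd36 (chr5:17835897-17836146, minus strand): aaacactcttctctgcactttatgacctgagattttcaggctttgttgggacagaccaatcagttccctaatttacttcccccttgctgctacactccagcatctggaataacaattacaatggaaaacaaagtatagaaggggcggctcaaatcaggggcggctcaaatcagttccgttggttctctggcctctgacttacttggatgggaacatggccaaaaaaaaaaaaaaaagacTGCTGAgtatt
CAGGAA stood in the windows of 4 of the 7 genes (Stab1, Stab2, Mrc1 and Clec4g), and in 25.7% of 32851 mouse promoters over the same window. TATAAA was found in Clec4g and at 2 places in Clec1b, against 12.4% of all promoters on either strand. The Clec4g match, between 31 and 26 bases before the start, was on the opposite strand and reads TTTATA in the sequence shown. In Clec1b the match further from the start was on the strand of the gene and the nearer one on the opposite strand. TGCTGA was found in Stab1 and Cd36 (16.1% of all promoters) and TGATAA only in Clec1b among the 7 (7.94%). CCGGAA and AGATAA, a second core of the ETS and of the Gata4 family, matched none of the 7 windows and 12% and 9.99% of all promoters. In Clec1b the first TATAAA match and the TGATAA match lie side by side without overlap.

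In endothelial cells, 9 of the 10 receptor genes had a lower CPM in the CCl4 library, although Lyve1 turned under 6 alternatives, and Cd36 had a higher one. A lower CPM was common among all genes. Of the 6852 genes past a filter of 20 mean CPM, 56.6% had a ratio as low as that of Lyve1 or lower. The share with any ratio below 1 is at least this large and is not given here, so nothing is read from the 9 of 10. Clec4g, Clec1b and Stab1 were at least 2-fold lower, or 3 of 10, where 9.66% of the 6852 genes past a filter of 20 mean CPM were. None was at least 2-fold higher, against a background of 6.06%. The median log2 ratio (CCl4 over healthy) of the 10 genes was -0.86, and that of all genes past the filter was -0.22. Among cells passing the endothelial gate only, 2 genes (Clec4g and Clec1b) were at least 2-fold lower, against 9.59% of 6610 genes, and 1 (Cd36) was at least 2-fold higher, against 3.51%. The median over the 10 genes was then -0.44, beside -0.22 for all genes.

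**Figure D1:**
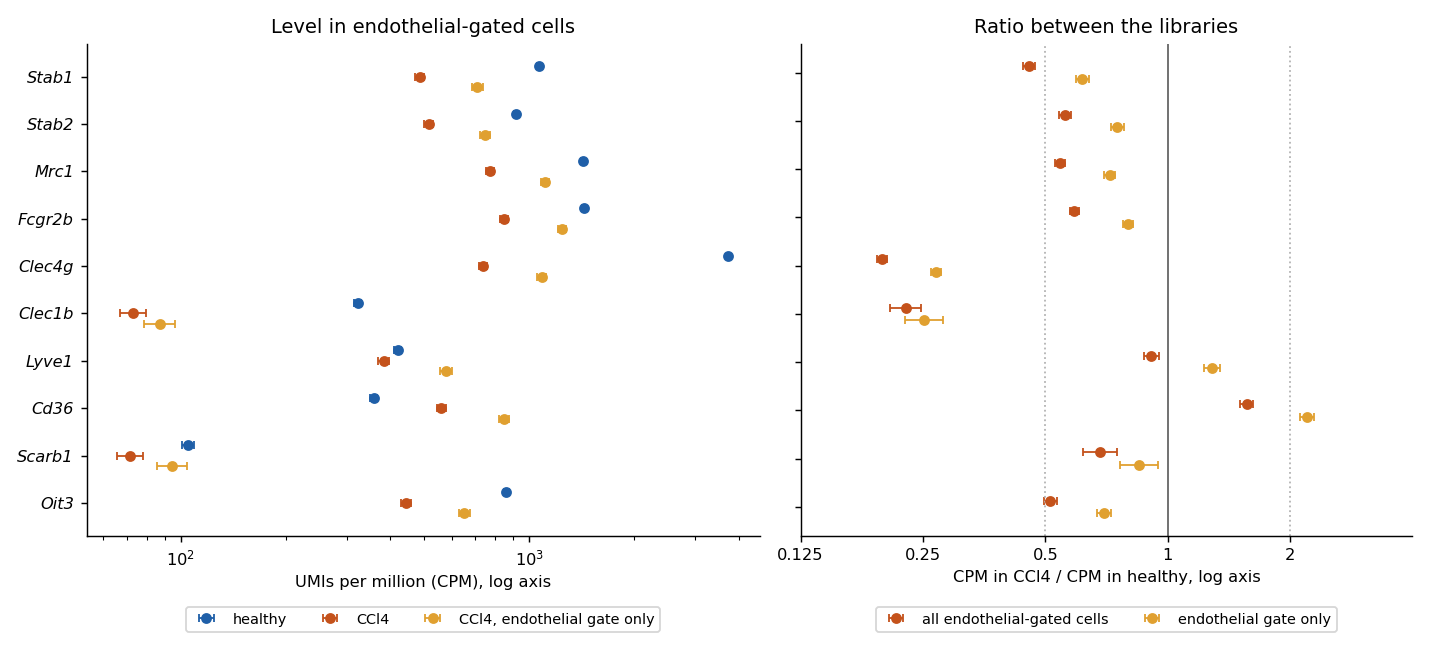
Left, CPM (log axis) of the 10 receptor genes in endothelial-gated cells of the healthy library (blue), of the CCl4 library (red) and in CCl4 cells passing the endothelial gate only (yellow). Right, CCl4 over healthy ratio (log axis, lines at 0.5, 1 and 2) for all endothelial-gated cells and for those passing the endothelial gate only in both libraries; bars are exact 95% intervals of counting error. Clec4g and Clec1b lie left of 0.5 in both populations, Cd36 right of 1 in both, and Lyve1 on either side of 1.

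The 3 receptors of hyaluronan and modified proteins did not behave alike. Stab1 encodes stabilin-1, a scavenger receptor shared by sinusoidal endothelium and some macrophages, and stood at 1065 CPM in healthy and 485 CPM in CCl4 endothelial cells (ratio 0.455, 95% interval 0.439 to 0.471). Its share of cells with a UMI, after each cell was thinned to 2000 UMIs, was 83.5% and 62.2%. Stab2 encodes stabilin-2, the main hyaluronan clearance receptor of the sinusoid, and was counted at 919 and 515 CPM (ratio 0.560, 0.541 to 0.580), or in 76.9% and 61.6% of thinned cells. Among cells passing the endothelial gate only, the ratios were 0.617 (0.594 to 0.641) for Stab1 and 0.752 (0.724 to 0.781) for Stab2. Lyve1, a hyaluronan receptor that also marks lymphatic vessels, stood at 419 and 382 CPM (ratio 0.911, 0.874 to 0.95), and its thinned shares were 43.5% and 44.0%. Its direction turned in cells passing the endothelial gate only, where it was 449 CPM in healthy and 578 CPM in CCl4 cells (ratio 1.29, 1.23 to 1.34).

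Mrc1, the mannose receptor, which takes up mannose-ending glycoproteins and collagen fragments, was counted at 1427 CPM in healthy and 774 CPM in CCl4 endothelial cells (ratio 0.542, 0.527 to 0.558). It was detected in 86.9% and 74.2% of thinned cells. Fcgr2b, the inhibitory IgG receptor through which sinusoidal endothelium clears small immune complexes, stood at 1437 and 847 CPM (ratio 0.590, 0.574 to 0.606), and at 75.8% and 69.6% of thinned cells. Both were closer between the libraries in cells passing the endothelial gate only, with ratios of 0.719 (0.697 to 0.742) for Mrc1 and 0.799 (0.776 to 0.823) for Fcgr2b. Oit3, which encodes a secreted protein with a zona pellucida domain, was counted at 861 and 443 CPM (ratio 0.515, 0.496 to 0.534; endothelial gate only 0.697, 0.670 to 0.726).

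Clec4g and Clec1b, both C-type lectins, were the receptors furthest below the healthy level. Clec4g encodes LSECtin, a lectin of sinusoidal endothelium that binds glycans, and stood at 3721 CPM in the healthy library and 737 CPM in the CCl4 library, a 5.05-fold difference (ratio 0.198, 0.193 to 0.204). The median healthy endothelial cell held 23 Clec4g UMIs (10th to 90th percentile 2 to 46) and the median CCl4 cell 6 (0 to 17). Only 1.15% of the genes past the filter had a ratio this low or lower. Most CCl4 cells still held the transcript, with a UMI in 67.4% of thinned cells (63.9% to 70.8%) against 93.2% in the healthy library. Clec1b encodes CLEC-2, the podoplanin receptor best known from platelets, and was counted at 322 and 73.1 CPM, a 4.41-fold difference (ratio 0.227, 0.208 to 0.247). It had a UMI in 45.2% of healthy and 13.4% of CCl4 thinned cells. In cells passing the endothelial gate only, the difference was 3.72-fold for Clec4g (4033 and 1085 CPM) and 3.98-fold for Clec1b (346 and 87.0 CPM).

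Of the class B scavenger receptors, Cd36 was higher and Scarb1 lower in the CCl4 library. Cd36, a receptor of long-chain fatty acids and oxidised lipoproteins, stood at 358 CPM in healthy and 560 CPM in CCl4 endothelial cells (ratio 1.56, 1.51 to 1.62). It had a UMI in 45.5% and 61.5% of thinned cells. In cells passing the endothelial gate only it was 385 and 849 CPM (ratio 2.2, 2.12 to 2.29). Scarb1, the receptor of high-density lipoprotein, was 105 CPM in healthy and 71.7 CPM in CCl4 endothelial cells (ratio 0.683, 0.621 to 0.75; endothelial gate only 0.850, 0.762 to 0.946). Counts at 3′ ends do not rank genes against each other, so levels are compared within a gene.

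The thinned shares lay above those of cholangiocytes and mesenchymal cells, which were not free of all 10 genes. Healthy cholangiocytes (1256 cells, median 11414 UMIs) gave thinned shares of 0.308% for Lyve1 to 5.38% for Cd36, and CCl4 mesenchymal cells (3080 cells, median 13258 UMIs) 0.200% for Clec1b to 3.72% for Scarb1. 473 healthy and 40 CCl4 endothelial cells were too shallow to be thinned. The unthinned shares were 94.6% and 87.0% for Clec4g, 64.3% and 35.7% for Clec1b, and 65.1% and 82.2% for Cd36. Unthinned Scarb1 was 45.1% and 45.8%, where the CPM was lower in the CCl4 library.

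Most endothelial cells held several of the receptors. Whether the genes occurred together more often than their single shares give was not tested. A healthy endothelial cell thinned to 2000 UMIs held a median of 7 of the 10 genes, and a CCl4 endothelial cell a median of 6. 5 or more were detected in 86.4% (85.2% to 87.6%) of 3058 healthy cells and 68.5% (65.0% to 71.9%) of 731 CCl4 cells, or 78.8% (75.2% to 82.1%) of the 565 CCl4 cells passing the endothelial gate only. None was detected in 1.93%, 6.29% and 1.59% of these. The summed UMIs of the 10 genes had a median of 25 per thinned healthy cell, 12 per CCl4 cell and 14 per CCl4 cell passing the endothelial gate only. Of healthy cholangiocytes 80.9%, and of CCl4 mesenchymal cells 91.6%, held none of the 10 at this depth.

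**Figure D2:**
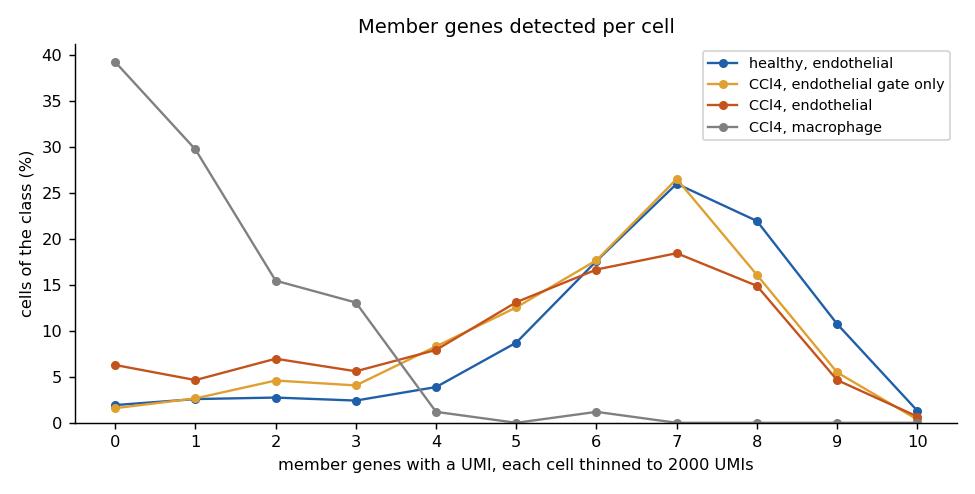
Share of cells (%) against the number of the 10 receptor genes with a UMI after each cell was thinned to 2000 UMIs, for healthy endothelial cells, CCl4 endothelial cells (all, and endothelial gate only) and CCl4 macrophages. The median is 7 in healthy endothelial cells, 6 in both CCl4 endothelial populations and 1 in CCl4 macrophages.

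The receptors also varied along a score of pericentral and periportal endothelial genes. Healthy endothelial cells were scored by the share of pericentral UMIs (Wnt2, Wnt9b, Rspo3, Kit and Cdh13) among these plus periportal UMIs (Dll4, Efnb2, Ltbp4, Ntn4 and Adgrg6), and the 3235 cells with at least 3 such UMIs were put into 5 bins of 647 cells. The bins are ranges of this score and not cell types, and cells tied at a share of 0 fall into both bin 1 and bin 2. Cells with large-vessel or lymphatic markers were kept in the bins, and their part in these courses was not tested. Stab1, Stab2, Mrc1, Fcgr2b, Clec4g, Clec1b, Lyve1 and Oit3 were lowest in bin 1, the most portal. The share of all genes lowest there was not computed, so nothing particular to the receptors is read from this. In cells passing the endothelial gate only, Fcgr2b was lowest in bin 2. In the whole endothelial gate, Stab2 was 562 CPM in bin 1, 1289 CPM in bin 4 and 1152 CPM in bin 5, the most central (central over portal 2.05, 1.95 to 2.15). Clec1b was 196 CPM in bin 1 and 444 CPM in bin 5 (ratio 2.26, 2.08 to 2.46). Stab1, Mrc1, Clec4g and Oit3 likewise peaked in bin 4, with central over portal ratios of 1.94, 1.62, 1.45 and 1.43, and Fcgr2b varied least of this group (1.27, 1.22 to 1.32).

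Lyve1 and Cd36 followed other courses. Lyve1 was highest in the middle, at 647 CPM in bin 3 against 251 CPM in bin 1 and 306 CPM in bin 5. Cd36 declined across all 5 bins, from 507, 486, 401 and 277 CPM to 144 CPM, so that the most portal bin was 3.53-fold above the most central one. Scarb1 lay between 97.2 and 118 CPM in all bins. In healthy cells passing the endothelial gate only, the portal end was higher for the central genes, and the central over portal ratios were 1.75 for Stab2, 1.95 for Clec1b, 1.1 for Fcgr2b and 1.07 (0.986 to 1.17) for Lyve1.

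In CCl4 cells passing the endothelial gate only (470 scored cells, 94 in each bin), the stabilins and Clec4g were lower in the most central than in the most portal bin. Clec4g was 1348 CPM in the most portal and 747 CPM in the most central bin (ratio 0.554, 0.497 to 0.617), Stab2 734 and 539 CPM (0.733, 0.640 to 0.840), and the ratio was 0.797 (0.695 to 0.913) for Stab1. For Clec1b it was 1.12 (0.742 to 1.71), an interval that spans 1. Fcgr2b was 1491 and 822 CPM (0.551, 0.497 to 0.610). Cd36 again declined towards the central end, from 1159 to 393 CPM, and Lyve1 again peaked in bin 3, at 840 CPM. Stab1 (828 CPM), Stab2 (880 CPM), Mrc1 (1273 CPM) and Oit3 (838 CPM) were highest in bin 3 as well. All CCl4 endothelial cells were not used for this course because 46 and 58 of the 124 cells in bins 3 and 4 passed the mesenchymal gate, and the part of these cells in the score was not tested.

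**Figure D3:**
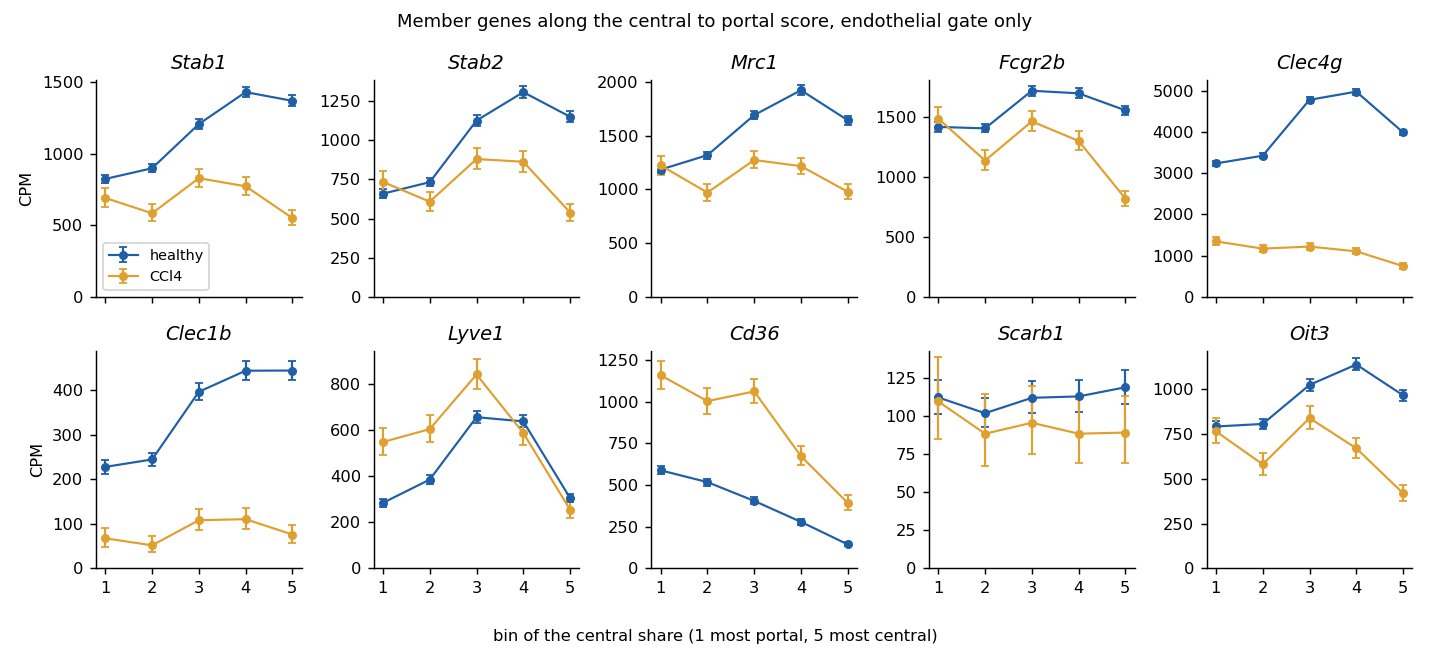
CPM of each receptor gene in 5 bins of the central share (1 most portal, 5 most central) in healthy (blue) and CCl4 (yellow) cells that pass the endothelial gate only; bars are exact 95% Poisson intervals, and bins were made within each library. Clec4g and Clec1b of CCl4 cells lie below the healthy line in every bin, and Cd36 above it in every bin. In bin 1 the CCl4 value is above the healthy one for Stab2 (734 and 659 CPM), Mrc1 (1224 and 1184), Fcgr2b (1491 and 1421) and Lyve1 (547 and 284). Oit3 (765 and 792 CPM) and Scarb1 (109 and 112 CPM) are slightly below it there.

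Bins made within a library need not cover the same shares, so cells were also compared within fixed ranges of the central share, a choice made after seeing the data. For Clec4g the CCl4 over healthy ratio was 0.361 (0.345 to 0.379) below a share of 25%, 0.226 (0.213 to 0.238) from 25% to 75% and 0.207 (0.193 to 0.222) from 75%. Clec1b stood at 0.25, 0.277 and 0.174 in the same ranges, and Cd36 at 2.02, 2.73 and 2.62. Stab2 was near equal between the libraries at the portal end (0.921, 0.862 to 0.983) and lower at the central end (0.513, 0.470 to 0.558). Stab1 (0.714 to 0.430), Mrc1 (0.864 to 0.607), Fcgr2b (0.920 to 0.576) and Oit3 (0.850 to 0.479) showed the same order from portal to central. For Lyve1 the ratio was 1.59 (1.48 to 1.71) at the portal end and 0.928 (0.819 to 1.05) at the central end. These differences between ranges were not tested against replicates, and whether the score genes themselves moved with CCl4 was not tested.

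Within the endothelial gate, 57 healthy cells carried at least 3 UMIs of lymphatic markers (Prox1, Ccl21a, Mmrn1 and Pdpn). They had a low CPM of the receptors, with Clec4g at 72.3 CPM, Stab2 at 35.1 CPM and Lyve1 at 91.2 CPM (76.2 to 108). Their median depth was 21829 UMIs, against 4583 in the 1912 healthy cells below this limit and the large-vessel limit given next. Per cell, Lyve1 was closer between these sets, at 2.28 and 2.63 UMIs, while Clec4g was 1.81 and 22.0. A Lyve1 UMI was found in 12 of the 57 cells. 1565 healthy cells with at least 3 UMIs of large-vessel markers (Vwf, Sox17, Gja4, Gja5 and Bmx) still held 3556 CPM of Clec4g and 818 CPM of Stab2, against 4467 and 1173 CPM in the 1912 cells in neither set, so this limit did not set apart cells without the receptors. The 141 CCl4 cells that passed the mesenchymal gate as well had a lower CPM of all 10 genes than the other 630, among them Clec4g (269 and 1045 CPM) and Cd36 (170 and 817 CPM). Their depth was higher, with medians of 20929 and 6902.5 UMIs, and the counts per cell were closer, at 5.71 and 7.54 UMIs for Clec4g and 3.84 and 4.94 for Stab1. Scarb1 was higher per cell in the 141 cells (0.794 and 0.679 UMIs).

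Across the gated classes with at least 20 cells, the highest level of every receptor was in endothelial cells of 1 of the libraries. The genes were chosen by name as sinusoidal receptors, and the share of all genes highest in endothelial cells is not given here. Nothing particular to the receptors is therefore read from this. The order for Clec4g was healthy endothelial cells (3721 CPM), CCl4 endothelial cells (737 CPM) and then healthy mesenchymal cells (43.3 CPM, 23 cells), whose interval overlaps that of healthy hepatocytes (33.8 CPM). Lyve1 and Oit3 dropped from 382 and 443 CPM in CCl4 endothelial cells to at most 6.19 and 6.63 CPM in any other gated class. Clec1b was the exception in order, at 322 CPM in healthy endothelial cells, 150 CPM in CCl4 macrophages and 73.1 CPM in CCl4 endothelial cells. Scarb1 was the least restricted: CCl4 endothelial cells (71.7 CPM), healthy hepatocytes (67.6 CPM, 55.1 to 82.1) and CCl4 macrophages (60.8 CPM, 45.5 to 79.5) had overlapping intervals. Fcgr2b was at 91.8 CPM in CCl4 macrophages and 48.0 CPM in 71 CCl4 B cells (24.0 to 85.8), a cell type known to carry it, and these intervals overlap. The 309 healthy cells that passed no gate, with a median of 1101 UMIs, held 416 CPM of Clec4g and 395 CPM of the 6 endothelial check genes.

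**Figure D4:**
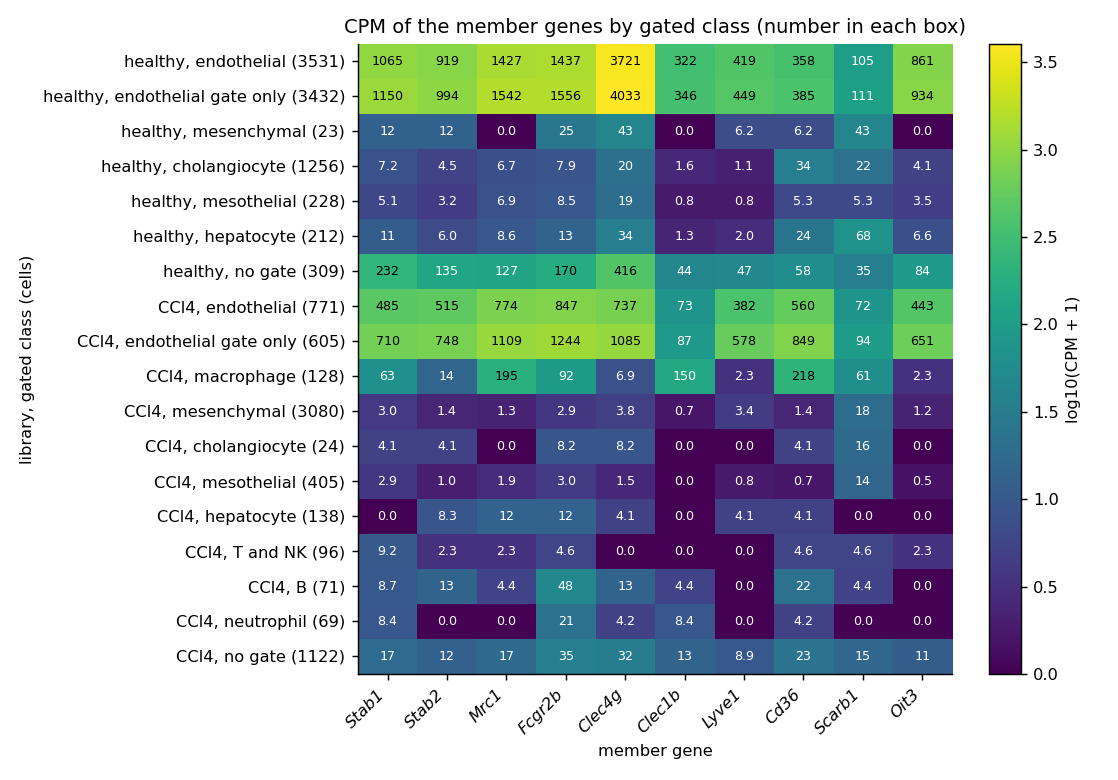
CPM of the 10 receptor genes (columns; number in each box, colour log10(CPM + 1)) in each gated class with at least 20 cells of either library (rows, with cell numbers). The highest value of each gene is in an endothelial row, for genes chosen by name as sinusoidal receptors. The CCl4 macrophage row holds Mrc1, Clec1b and Cd36 above 100 CPM.

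Free RNA from 1 source keeps the genes of that source in the same proportions in every class of a library, so the receptors were also set against Clec4g. In healthy cholangiocytes the UMIs per Clec4g UMI had intervals that overlap those of healthy endothelial cells for Stab1, Stab2, Mrc1, Fcgr2b, Clec1b and Oit3, for example 0.357 and 0.286 for Stab1 and 0.390 and 0.386 for Fcgr2b. They did not overlap for Cd36 (1.68, 1.46 to 1.93, and 0.0962), Scarb1 (1.1, 0.942 to 1.28, and 0.0282) and Lyve1 (0.0541, 0.0316 to 0.0868, and 0.113). In CCl4 mesenchymal cells only Stab1 and, barely, Clec1b overlapped CCl4 endothelial cells. Scarb1 (4.70, 3.94 to 5.63, and 0.0972) and Lyve1 (0.901 and 0.518) were above the endothelial proportion there. Mrc1 (0.342 and 1.05), Stab2 (0.368 and 0.698), Fcgr2b, Cd36 and Oit3 were below it.

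Macrophages were defined by at least 6 UMIs of Csf1r, Cd68, Adgre1, C1qa, C1qb and C1qc without the endothelial gate. There were 9 such cells in the healthy and 128 in the CCl4 library, and 4 of the 9 healthy cells also passed the cholangiocyte gate. The macrophage gate itself was passed by 31 healthy and 157 CCl4 cells. Of these, 22 and 29 were left out because they passed the endothelial gate too, a larger part of the healthy cells. The Kupffer cell markers summed to 6279 and 6154 CPM in the cells left out. Macrophages carry CD45, and the part of the CD45+ removal in these numbers was not tested. The endothelial check genes summed to 6.22 and 10.3 CPM in the 9 and 128 macrophages. In CCl4 macrophages the counts were well above those of background classes for Cd36 (218 CPM, 188 to 251), Mrc1 (195 CPM, 167 to 227), Clec1b (150 CPM, 126 to 178), Fcgr2b (91.8 CPM, 72.8 to 114) and Stab1 (63.1 CPM, 47.5 to 82.1). Stab2 (13.8 CPM), Clec4g (6.88 CPM), Lyve1 and Oit3 (both 2.29 CPM) came from 12, 6, 2 and 2 UMIs. Compared within the CCl4 library, Clec1b was 2.05-fold higher in macrophages than in endothelial cells. Scarb1 could not be told apart at this depth (endothelial over macrophage 1.18, 0.888 to 1.59), and the other 8 receptors were higher in endothelial cells, from 2.57-fold for Cd36 to 193-fold for Oit3 (53.4 to 1596, from 2 macrophage UMIs).

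The CCl4 macrophages were not uniform. 65 of them held at least 3 UMIs of the Kupffer cell markers Clec4f, Vsig4, Cd5l, Timd4 and Marco, and 63 did not, a split added after seeing the data. Median depth was 2361 UMIs in the first set and 7298 UMIs in the second. Clec1b was 308 CPM in the first and 20.9 CPM in the second (ratio 14.8, 7.76 to 31.6). Mrc1 was 280 and 125 CPM (2.24, 1.62 to 3.12) and Cd36 298 and 152 CPM (1.96, 1.45 to 2.66). Of the 117 Cd36 UMIs in the first set, 52 came from the same cell, and of the 73 in the second, 24 did. The intervals do not cover such spread between cells, so no difference in Cd36 is read from them. Fcgr2b ran the other way, at 17.8 and 152 CPM (0.117, 0.0454 to 0.253). Stab2 was 28.0 and 2.09 CPM (13.4, 1.95 to 578), from 11 and 1 UMIs. Stab1 was 66.2 and 60.5 CPM (1.09, 0.619 to 1.92), and no difference was detectable at this depth.

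**Figure D5:**
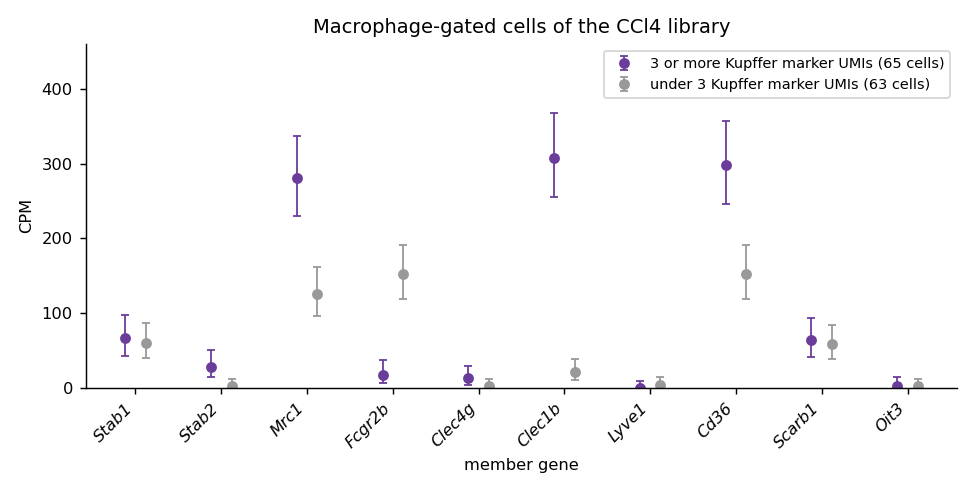
CPM of the 10 receptor genes in CCl4 macrophages with at least 3 Kupffer marker UMIs (purple, 65 cells) and with fewer (grey, 63 cells); bars are exact 95% Poisson intervals. Clec1b, Mrc1, Cd36 and Stab2 (the last from 11 and 1 UMIs) are higher in the first set and Fcgr2b in the second, while the intervals of Stab1 and Scarb1 overlap. For Cd36, 52 of the 117 UMIs of the first set came from the same cell.

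Between the libraries, macrophages allowed few statements because of the 9 healthy cells. 6 of the 10 receptors passed the filter of 20 mean CPM, Stab1 and Fcgr2b only through the CCl4 library, while Clec4g and Oit3, with a lower CPM there, did not pass. Counts over the 6 follow in part from this filter, and nothing is read from them: none was at least 2-fold lower in the CCl4 library, beside 30.7% of 6771 genes, and 4 were at least 2-fold higher, beside 13.1%. Mrc1 was 93.3 and 195 CPM (ratio 2.09, 1.23 to 3.82, from 15 and 170 UMIs) and Cd36 68.4 and 218 CPM (3.19, 1.74 to 6.49). Stab1 and Fcgr2b rested on 2 and 1 healthy UMIs, with ratios of 5.07 (1.34 to 42.9) and 14.8 (2.57 to 590). Clec1b (1.42, 0.855 to 2.51) and Scarb1 (0.815, 0.430 to 1.67) had intervals that span 1. Kupffer markers summed to 2667 CPM in the 9 healthy and 2528 CPM in the 128 CCl4 macrophages, and monocyte markers (Ly6c2, Ccr2, Chil3, Plac8 and Lyz2) to 1094 and 7737 CPM. Markers of other lineages differed too, with hepatocyte markers at 7673 and 70.0 CPM, cholangiocyte markers at 2176 and 10.3 CPM and mesenchymal markers at 18.7 and 416 CPM. Their part in these ratios was not tested.

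Other genes of the same pathways are given from 7 lists, as counts past the same 2-fold limit. Over all genes past the filter, 9.66% were lower and 6.06% higher in the CCl4 library in the whole endothelial gate, and 9.59% and 3.51% in cells passing the endothelial gate only. The lists are short, and nothing particular to a list is read from its counts. A gene that passed the filter only through the library where it is high had to differ, and such genes are named as such.

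Of 15 genes known from sinusoidal endothelium, 14 passed the filter, 4 were lower and 1 higher in CCl4 endothelial cells, with a median log2 ratio of -0.39. The higher one, Fcna, which encodes a secreted ficolin, passed through the CCl4 library only (10.4 and 54.5 CPM). Among cells passing the endothelial gate only, 1 of 13 was lower and none higher. That gene was Dnase1l3, which encodes a secreted deoxyribonuclease (3419 and 1511 CPM, ratio 0.442). Gpr182, an atypical chemokine receptor, was 1598 and 1102 CPM there (0.690), Kdr, the main receptor of vascular endothelial growth factor, 2017 and 2437 CPM (1.21), and Maf, a transcription factor, 1820 and 2041 CPM (1.12).

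Of 16 vascular and capillary genes, 15 passed and 3 were lower and 5 higher, and in cells passing the endothelial gate only 14 passed, 2 lower and 4 higher. The basement membrane collagens Col4a1 and Col4a2 were higher in cells passing the endothelial gate only too (611 and 1492 CPM, ratio 2.44, and 314 and 681 CPM, ratio 2.17). Cldn5, a tight junction gene, was lower there (1304 and 532 CPM, 0.408), as was Vwf, the von Willebrand factor gene (183 and 72.7 CPM, 0.397). Aqp1, a water channel, was 3556 and 1880 CPM there (0.529), and 3291 and 1386 CPM in the whole gate (0.421). Lamb1, a laminin gene, passed through the CCl4 library only (1.76 and 104 CPM), and was at 0.642 and 6.12 CPM in cells passing the endothelial gate only, a ratio of 9.53 (4.73 to 20.2). Esm1, named after its values were seen, also passed through the CCl4 library only, at 9.83 and 135 CPM in the whole gate and 10.8 and 227 CPM in cells passing the endothelial gate only.

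Of 19 other C-type lectins, 8 passed the filter, with 3 lower and 2 higher. In cells passing the endothelial gate only, 4 of 6 were lower and 1 higher. Clec14a, an endothelial lectin of cell contacts, was 932 and 316 CPM there (0.339) and Clec2d, a ligand of natural killer cell receptors, 371 and 134 CPM (0.361). Thbd, the thrombin-binding anticoagulant thrombomodulin, was 118 and 272 CPM (2.30), and Cd93 was 407 and 694 CPM (1.70). Mrc2, a relative of the mannose receptor, passed in the whole gate through the CCl4 library only (0.0902 and 44.1 CPM). In cells passing the endothelial gate only it rested on 1 and 18 UMIs (0.0493 and 4.23 CPM, ratio 85.8, 13.5 to 3575).

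Of 18 other scavenger receptors, 9 passed, none lower and 4 higher, and in cells passing the endothelial gate only none of 5 was past 2-fold. The 4 higher genes passed through the CCl4 library only, and were Marco, a macrophage receptor (1.44 and 81.9 CPM), Scarf2, Lrp1 and Axl, the last 3 named after their values were seen. Scara3 (27.7 and 1.06 CPM), also named after its values were seen, was lower but did not pass. In cells passing the endothelial gate only Marco rested on 1 and 6 UMIs (0.0493 and 1.41 CPM, ratio 28.6, 3.47 to 1316). Msr1, the class A scavenger receptor, was 205 and 270 CPM there (1.31), and Scarb2, a lysosomal member of the Cd36 family, 323 and 169 CPM (0.522). Cxcl16 and Mertk, which bind oxidised lipoprotein and apoptotic cells, were at ratios of 0.591 and 0.906.

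Of 7 Fc receptors, 3 passed the filter and 2 were lower, and in cells passing the endothelial gate only 1 of 2 was lower. Fcgrt, the neonatal Fc receptor that recycles IgG and albumin, was 801 and 325 CPM in the whole gate (0.406) and 857 and 402 CPM in cells passing the endothelial gate only (0.469). Pigr, an epithelial receptor, was 46.6 and 0.398 CPM in the whole gate and passed through the healthy library only. The cholangiocyte markers of the whole gate were at 180 CPM in the healthy and 4.38 CPM in the CCl4 library, and their part in the Pigr level was not tested. Fcer1g, the signalling chain of several Fc receptors, was 164 and 136 CPM, and Fcgr3 was 3.29 and 8.23 CPM.

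All 20 endocytic and lysosomal genes passed, with 2 lower and 1 higher, and 19 passed in cells passing the endothelial gate only, with 2 lower and none higher. The lower ones were Ctsl (1580 and 692 CPM, 0.438) and Man2b1 (271 and 91.6 CPM, 0.338), which encode a lysosomal protease and a mannosidase, with ratios of 0.465 and 0.323 in cells passing the endothelial gate only. Ctss, a protease of immune cells, was the higher one in the whole gate and passed through the CCl4 library only (16.9 and 34.0 CPM). Ehd3, a membrane-recycling gene, was 2538 and 1562 CPM (0.615), Lamp1, a lysosomal membrane protein, 833 and 595 CPM, and Ctsb, another protease, 859 and 812 CPM in the whole gate.

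Of 12 lipid uptake partners of Cd36 and Scarb1, 8 passed, 3 lower and 1 higher, and in cells passing the endothelial gate only 7 passed, 1 lower and none higher. The gene lower in both was Cd9, a tetraspanin (569 and 128 CPM, ratio 0.225, and 0.284 in cells passing the endothelial gate only). Gpihbp1, the capillary anchor of lipoprotein lipase, was at a ratio of 0.373 in the whole gate and 0.539 in cells passing the endothelial gate only. Fabp5, a carrier of fatty acids, likewise went from 0.453 to 0.555 and was no longer past 2-fold, and Fabp4, another carrier, was at 0.566 and 0.754. Lpl, the lipase itself, passed through the CCl4 library only (8.48 and 234 CPM in the whole gate, ratio 27.6). It was 0.938 and 21.9 CPM in cells passing the endothelial gate only, from 19 and 93 UMIs (23.3, 14.1 to 40.5).

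For each receptor the genes that followed it most closely in log2(CPM + 1) over 14 class and library points were also found. The points share free RNA within a library and include the endothelial classes of both, so that a difference common to a receptor and its closest genes is part of the choice, and the correlations are descriptions. They were Dnase1l3 and Cdh5 for Stab1 (Pearson r 0.94 for both), Gpr182 and Dll4 for Stab2 (0.95 and 0.93), Il1a and Msr1 for Mrc1 (0.95 and 0.94) and Dnase1l3 and Stab2 for Fcgr2b (0.95 and 0.92). For Clec4g they were Ushbp1 and Cldn5 (0.96 and 0.93), for Clec1b Msr1 and Zfp710 (0.93 and 0.91), and for Lyve1 Dll4 and Jam2 (0.98 and 0.95). Cd36 was closest to Msr1 and Mrc1 (0.91 and 0.90) and Scarb1 to Dram2 and Aggf1 (both 0.85), and Oit3 to Fam167b and Arhgef15 (both 0.99).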

How the data were processed

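The deposited files of both libraries held UMI counts per gene and cell barcode, made by the authors with Cell Ranger (3.1.0 for the healthy and 6.0.1 for the CCl4 library, per the file headers). The submitters' processing notes name the builds mm10 and GRCh38, and the gene identifiers were mouse. The 10 genes, the gates and the lists were chosen with earlier results of these data known.

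Genes were matched by Ensembl identifier (30406 on both lists, holding 99.9% and 99.6% of UMIs). The matrices held 6297 and 8460 cells. Cells with under 500 UMIs or 200 genes were dropped, as were 336 and 507 with over 30% mitochondrial UMIs and 277 and 487 doublets (Scrublet in scanpy 1.11.5, seed 1, expected rate 0.8% per 1000 cells). Cells were gated by summed marker UMIs, and classes other than endothelial cells and macrophages held cells passing 1 gate only. The gates asked for 4 UMIs of cholangiocyte, mesothelial, mesenchymal, T and NK or B cell markers, 20 of neutrophil markers, or 3% of UMIs from hepatocyte markers.

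UMIs were summed per library and class and divided by the class total (CPM). Poisson, conditional binomial and Clopper-Pearson intervals were computed with scipy 1.17.1, and a count of 0 allows up to 3 UMIs. Ratios for counts across genes used a filter of 20 mean CPM, with counts under 3 raised to 3. No test was run, as each group had 1 library. Named genes were the 10 receptors, of each list the 4 with the highest mean CPM over both endothelial populations plus the largest rise and the largest fall, and for each receptor the 2 genes with the highest correlation over classes. Of the list genes, Clec7a and Tcfec were not on both gene lists. The ratio code was tested on simulated counts with known changes. Alternatives included a TMM factor (edgeR 4.0.16).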

Additional observations from a re-analysis of the deposited data

Results flagged for a closer look

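3 receptors lay on opposite sides of equal levels in the 2 cell types. The CCl4 over healthy ratio was below 1 in endothelial cells, with intervals that exclude 1, and above 1 in macrophages. Stab1 had a ratio of 0.455 in endothelial cells and 5.07 (1.34 to 42.9) in macrophages. Mrc1 had 0.542 and 2.09 (1.23 to 3.82), and Fcgr2b 0.590 and 14.8 (2.57 to 590). The difference between the cell types was not tested. In macrophages Stab1 and Fcgr2b passed the filter on low values only through the CCl4 library, where they are high, so their direction there is not evidence of a difference. The healthy macrophages were 9 cells with 2, 15 and 1 UMIs of these genes, and 4 of those cells also passed the cholangiocyte gate.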

How the results depend on the processing

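No paired analysis was possible because each group had 1 library. In endothelial cells Clec4g and Clec1b were at least 2-fold lower under all 15 alternatives run, Stab1 under 10, and Cd36 was higher under all 15. The log2 ratio of Clec1b was -2.14, and -2.37 without endothelial cells passing the macrophage gate. The count of receptors at least 2-fold lower was 3, and became 7 with a gate of 2 UMIs, 6 without cells passing the large-vessel or lymphatic gate and 5 without doublet removal. It was 2 without the 50 most abundant genes and with TMM, and 2 with 1 gene at least 2-fold higher in cells passing the endothelial gate only, without mesenchymal-gated cells and scaled to the check genes. The median log2 ratio was -0.86. It was -1.39 with a gate of 2 UMIs, -1.06 without the large-vessel or lymphatic cells, -1.02 without doublet removal, -0.79 with every cell weighing the same, -0.72 without the 50 most abundant genes in the total, -0.67 with the TMM factor and -0.75 with only cells of at least 5000 UMIs. Among alternatives added after seeing the data, it was -0.44 in cells passing the endothelial gate only, -0.38 without cells passing the mesenchymal gate and -0.43 when scaled to the endothelial check genes. TMM moved the median of all genes from -0.22 to -0.035 and the check gene scaling moved it to 0.21.

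Lyve1 (main log2 ratio -0.13) turned positive with every cell weighing the same (0.10), without the 50 most abundant genes (0.0058), with TMM (0.055), in cells passing the endothelial gate only (0.36), without mesenchymal-gated cells (0.40) and scaled to the check genes (0.30). The cause was not tested.

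In macrophages, where the filter favours genes high in the CCl4 library, the count at least 2-fold lower was 0, and 2 with a gate of 4 UMIs, 3 with a gate of 12, 5 with endothelial-gated macrophages kept, 2 with equal weights and 1 with background subtracted. The median of 1.37 reversed to -1.06 with a gate of 12 UMIs, -0.98 with endothelial-gated macrophages kept and -0.22 with equal weights. Under the same 3 settings Mrc1 reversed to -1.06, -0.65 and -0.76. Stab1 reversed to -1.31 with endothelial-gated macrophages kept and -0.34 with equal weights, and Fcgr2b to -0.48 with endothelial-gated macrophages kept. Of 150 ratios of single receptors in endothelial cells, 57 stayed within the counting interval, 87 moved beyond it in the same direction and 6 reversed. Depth limits the macrophage values, which rest on 9 healthy cells.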
